A study of Saccharomyces cerevisiae with 8 samples.

Results

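The cytoplasmic ribosomal protein genes of Saccharomyces cerevisiae encode the proteins that make up, with the ribosomal RNAs, the large and the small subunit of the ribosome. The members were the ribosomal protein genes of a list of 39 that have a row in the study's table of transcripts, which left 34 genes among the 1999 transcripts used from that table. The rule goes by gene name and uses no measured value. The other 5 listed genes, YNL067W, YNL069C, YNL096C, YNL162W and YNL178W, had no row and were not analysed here. The members were set against the 1580 other transcripts outside chromosome 10, which gave 1614 transcripts in all. Of the 34 members, 18 encode proteins of the large subunit (symbols starting with RPL) and 16 of the small subunit (RPS). On chromosome 11 there were 5 members, on chromosome 12 there were 17, on chromosome 13 there were 10 and on chromosome 14 there were 2.

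The data were 8 paired-end MNase-seq libraries, 2 from H3 shutoff cells after 3 h in dextrose, 2 from H3 shutoff cells at 0 h, 2 from wildtype cells after 3 h and 2 from wildtype cells at 0 h. In the H3 shutoff strain (DCB200.1) the histone H3 gene HHT1 is deleted and the other H3 gene, HHT2, is driven by the GAL1 promoter, which is active in galactose and repressed in dextrose. The wildtype strain (YEF473A) carries both H3 genes. Both strains were grown in galactose medium and moved to dextrose medium, and chromatin was fixed with formaldehyde directly after the move (0 h) or 3 h later. H3 shutoff replicates 3 and 4 and wildtype replicates B and C each gave both time points, and a replicate with both its libraries is called a culture. Wildtype cells thus show the change of the carbon source, and H3 shutoff cells the same change with the loss of new H3 and an arrest in G2/M, which cannot be told apart here. The labels do not say whether wildtype replicates B and C were grown separately, so the p-values measure the spread between these libraries, which may be technical in part.

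Micrococcal nuclease digests the DNA between nucleosomes, and the fragments it leaves were gel selected at the length of a single nucleosome and sequenced from both ends. The midpoint of each fragment, called the read center, marks the middle of the protected DNA. Every library held 5000001 fragments of 100 to 200 bp, with mean lengths of 146 to 163 bp, and a genome mean of 41.5 to 41.8 read centers per 100 bp on the chromosomes used. The counts are therefore shares of equally deep libraries. A region can gain read centers because other regions lost them, and the absolute number of nucleosomes was not measured. A search of the genome for stretches of 100 bp empty in every H3 shutoff library and filled in every wildtype library found 4, on chromosomes 2 and 14, with 11 to 37 read centers in wildtype. They were picked for this pattern and were not matched to the H3 genes, so they are no check of the labels. In 51 other stretches wildtype B at 0 h, wildtype C at 3 h and both libraries of H3 shutoff replicate 4 held read centers. The other libraries held few or none there, and 0 of these stretches overlapped a member. This split runs across both wildtype cultures, and its cause was not tested.

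Ribosomal protein genes are among the most strongly transcribed genes of growing yeast. At most of their promoters the general regulatory factor Rap1 binds upstream of the start and brings in the activator Fhl1 with its coactivator Ifh1. Signals of nutrient supply, which run through the TOR and protein kinase A pathways and the activator Sfp1, raise or lower their transcription together. Like other active yeast genes they carry a stretch poor in nucleosomes before the start, followed by the nucleosomes numbered +1, +2 and so on into the gene.

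Before the shift the promoters of the ribosomal protein genes were poor in read centers. The promoter window is the 300 bp before the listed start. At 0 h the median member had 16.0 and 8.0 read centers per 100 bp in H3 shutoff replicates 3 and 4 and 19.0 and 8.5 in wildtype replicates B and C. The other transcripts had medians of 24.7 to 29.3 in the same 4 libraries. Replicates 4 and C thus began at about the same low level, and replicates 3 and B at about the same higher one, in both strains. Gene bodies, from the listed start to the listed end, were also less occupied in the members, with medians of 26.9 to 31.0 read centers per 100 bp at 0 h against 43.0 to 44.1 in the other transcripts.

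The members were short, with a median length of 885 bp (478 to 1535 bp) against 1335.5 bp in the other transcripts. The +1 nucleosome, taken as the highest pooled density from 50 bp before to 150 bp after the listed start, lay at a median of 44 bp after it, against 45 bp in the other transcripts. From +1 to +2 the median distance was 160.5 bp in members and 169 bp in the other transcripts. The +2, +3 and +4 nucleosomes of members were less clear: in 20.6%, 21.2% and 25% of members the highest density lay at the border of the stretch searched, against 5.4%, 4.7% and 6.0% of the other transcripts.

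**Figure D1:**
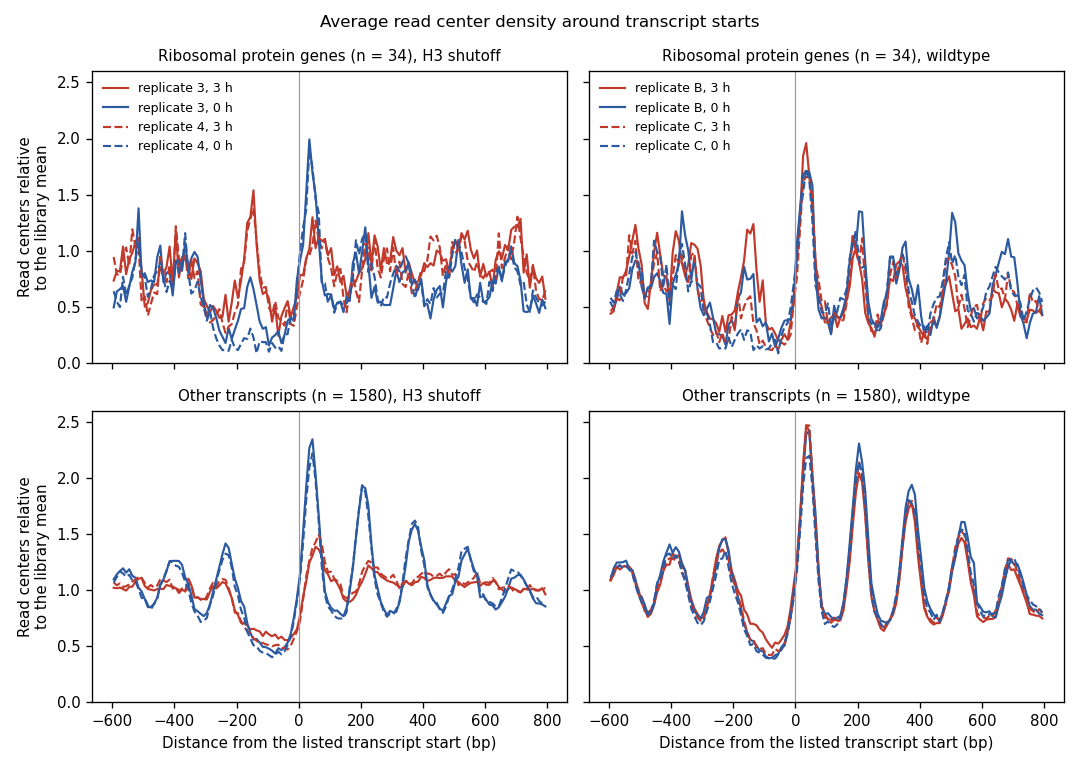
Average read center density around the listed transcript start (0 bp), relative to the mean of each library, in 10-bp steps, for the 34 ribosomal protein genes (top) and the 1580 other transcripts (bottom), in H3 shutoff (left) and wildtype (right). Red lines are 3 h and blue lines 0 h, solid for replicates 3 and B and dashed for replicates 4 and C. In both H3 shutoff cultures a peak stands between 200 and 100 bp before the start of the ribosomal protein genes at 3 h. Wildtype replicate B has a peak there at 3 h too, and wildtype replicate C a lower one. H3 shutoff replicate 3 and wildtype replicate B already have a smaller peak there at 0 h. H3 shutoff replicate 4 and wildtype replicate C were nearly empty there at 0 h.

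In the promoter windows read centers accumulated at 3 h in the H3 shutoff strain. Of the 34 members 17 rose and 1, RPS22B, fell, and the median log2 change of the members was 1.15. Of all 1594 transcripts tested 7.47% rose and 10.7% fell, and the median of the other transcripts was −0.08. Summed over the members, the promoter windows held 2691 read centers at 3 h against 1628 at 0 h in replicate 3, and 2478 at 3 h against 957 at 0 h in replicate 4. In replicate 3 the count was higher at 3 h in 29 members and in replicate 4 in 32, against 45.7% and 41.2% of the other transcripts. Large and small subunit genes gave like values, with 10 of 18 and 7 of 16 risen and median log2 changes of 1.17 and 1.12. The test was edgeR's quasi-likelihood test with culture as a block and Benjamini-Hochberg adjustment over all transcripts tested, at 0.05, and all 34 members had enough read centers (80 in the 8 libraries) to be tested. Without the block 10 members rose and by DESeq2 7, against 2.88% and 1.6% of the other transcripts. The calls also depended on single cultures, most of all on H3 shutoff replicate 4. Without H3 shutoff replicates 3 and 4 in turn the median was 1.46 and 0.76 in members. In the other transcripts it was −0.13 and −0.05. The share of promoter fragments under 140 bp in members was 33.5% at 3 h against 18.6% at 0 h in replicate 3 and 16.8% at 3 h against 26.4% at 0 h in replicate 4, and with fragments of 140 to 160 bp alone 12 of the 27 members tested rose, with a median of 0.81 where the median of all transcripts was −0.63.

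**Figure D2:**
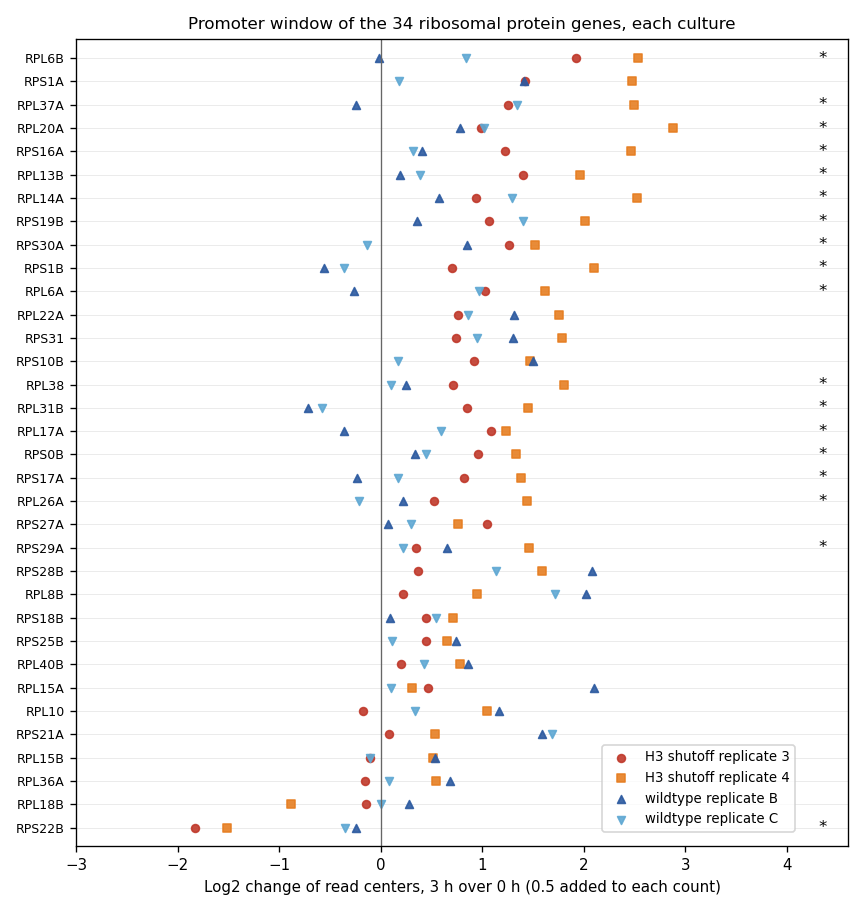
Log2 change of promoter window read centers, 3 h over 0 h (x axis, 0.5 added to each count) in each of the 34 ribosomal protein genes (rows, ordered by the fitted change in H3 shutoff). Circles and squares are H3 shutoff replicates 3 and 4, triangles wildtype replicates B and C, and an asterisk marks an adjusted p under 0.05 in H3 shutoff, which 18 members reached. RPL6B stands at the top and RPS22B at the bottom.

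The largest rise was at RPL6B (YLR448W, chromosome 12, 1028784 to 1030011, Watson strand), a gene for a protein of the large subunit. Its promoter window held 149 and 118 read centers in H3 shutoff replicates 3 and 4 at 3 h, against 39 and 20 at 0 h, and 62 and 29 in wildtype replicates B and C at 3 h, against 63 and 16 at 0 h. Both H3 shutoff libraries of 3 h lay above the 6 others. The change in H3 shutoff was 4.63-fold (log2 2.21 ± 0.34 SE, adjusted p = 1.05e-06, edgeR). At RPL37A (YLR185W, chromosome 12, 522646 to 523389, Watson strand), also of the large subunit, the counts were 120 and 126 at 3 h against 50 and 22 at 0 h in H3 shutoff, and 75 and 64 at 3 h against 89 and 25 at 0 h in wildtype. Again both H3 shutoff libraries of 3 h were the highest (log2 1.82 ± 0.33 SE, adjusted p = 2.42e-05, edgeR). RPL20A had 117 and 128 at 3 h against 59 and 17 at 0 h in H3 shutoff (log2 1.80 ± 0.33 SE, adjusted p = 2.83e-05, edgeR). In wildtype it had 117 and 41 at 3 h against 68 and 20 at 0 h, so that wildtype replicate B at 3 h was as high as H3 shutoff replicate 3.

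RPS16A and RPL13B are divergent neighbours on chromosome 13, RPS16A at 551899 to 552987 on the Watson strand and RPL13B at 550132 to 551222 on the Crick strand, and their promoter windows do not overlap. Rps16 reaches with its tail towards the tRNA bound in the ribosome, and Rpl13 belongs to the large subunit. RPS16A had 138 and 113 promoter read centers at 3 h against 59 and 20 at 0 h in H3 shutoff, and 85 and 35 at 3 h against 64 and 28 at 0 h in wildtype. RPL13B had 112 and 114 at 3 h against 42 and 29 at 0 h in H3 shutoff, and 73 and 42 at 3 h against 64 and 32 at 0 h in wildtype. In both genes the H3 shutoff libraries of 3 h were the highest of the 8, and both rose (log2 1.77 ± 0.32 SE with an adjusted p of 2.64e-05 and log2 1.68 ± 0.32 SE with an adjusted p of 8.47e-05, edgeR).

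RPS22B (YLR367W, chromosome 12, 855877 to 857376, Watson strand), which encodes a protein of the small subunit, went the other way. Its promoter window held 21 and 27 read centers in H3 shutoff at 3 h, against 76 and 78 at 0 h, and 76 and 64 in wildtype at 3 h, against 90 and 82 at 0 h. Both H3 shutoff libraries of 3 h were below the 6 others (log2 −1.68 ± 0.34 SE, adjusted p = 0.000193, edgeR), a call that was lost without replicate 4. Its read centers lay mainly in the outer 100 bp of the window, 300 to 201 bp before the start, with 12 and 25 at 3 h against 49 and 57 at 0 h in H3 shutoff. At RPL36A and RPL18B, too, most promoter read centers of 0 h lay there. RPL36A had 98 and 95 in its whole window at 3 h against 109 and 65 at 0 h in H3 shutoff, and RPL18B 28 and 22 at 3 h against 31 and 41 at 0 h, and neither passed the test (log2 0.18 and −0.52).

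The promoter counts of the members differed widely. The fewest read centers in the 8 libraries together were 92 at RPS28B and 97 at RPS31, whose protein is made as a fusion with ubiquitin, and the most were 716 at RPL36A and 1021 at RPL31B, whose protein sits near the exit of the peptide tunnel. RPL31B (YLR406C, chromosome 12, 930897 to 931779, Crick strand) had 155 and 250 in H3 shutoff at 3 h, against 86 and 91 at 0 h, and 97 and 73 in wildtype at 3 h, against 160 and 109 at 0 h. It was thus higher at 3 h in both H3 shutoff cultures and lower at 3 h in both wildtype cultures. It rose in H3 shutoff (log2 1.17 ± 0.18 SE, adjusted p = 1.41e-06, edgeR).

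The added read centers were concentrated between 200 and 101 bp before the start. In that part the members together held 1328 at 3 h against 700 at 0 h in H3 shutoff replicate 3 and 1325 at 3 h against 267 at 0 h in replicate 4. The count was higher at 3 h in both H3 shutoff cultures in 29 of 34 members, against 44.4% of the other transcripts. In wildtype replicate B the sum was 1196 at 3 h against 810 at 0 h, and in replicate C 563 at 3 h against 294 at 0 h, with 25 members higher in both cultures against 46.1% of the other transcripts. In the part next to the start, from 100 to 1 bp before it, the sums were 656 at 3 h against 457 at 0 h and 611 at 3 h against 380 at 0 h in H3 shutoff replicates 3 and 4. In wildtype they were 423 at 3 h against 457 at 0 h in replicate B and 283 at 3 h against 400 at 0 h in replicate C. The sum near the start was thus higher at 3 h in both H3 shutoff cultures and lower in both wildtype cultures. In H3 shutoff replicates 3 and 4 it was higher in 26 and 24 members and lower in 8 and 7. In wildtype replicate C 8 members were higher and 23 lower. In replicate B, however, 17 were higher and 15 lower, and the median was 9.0 at 3 h against 8.0 at 0 h. These parts of the window were set after the profile had been seen and were not tested.

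**Figure D3:**
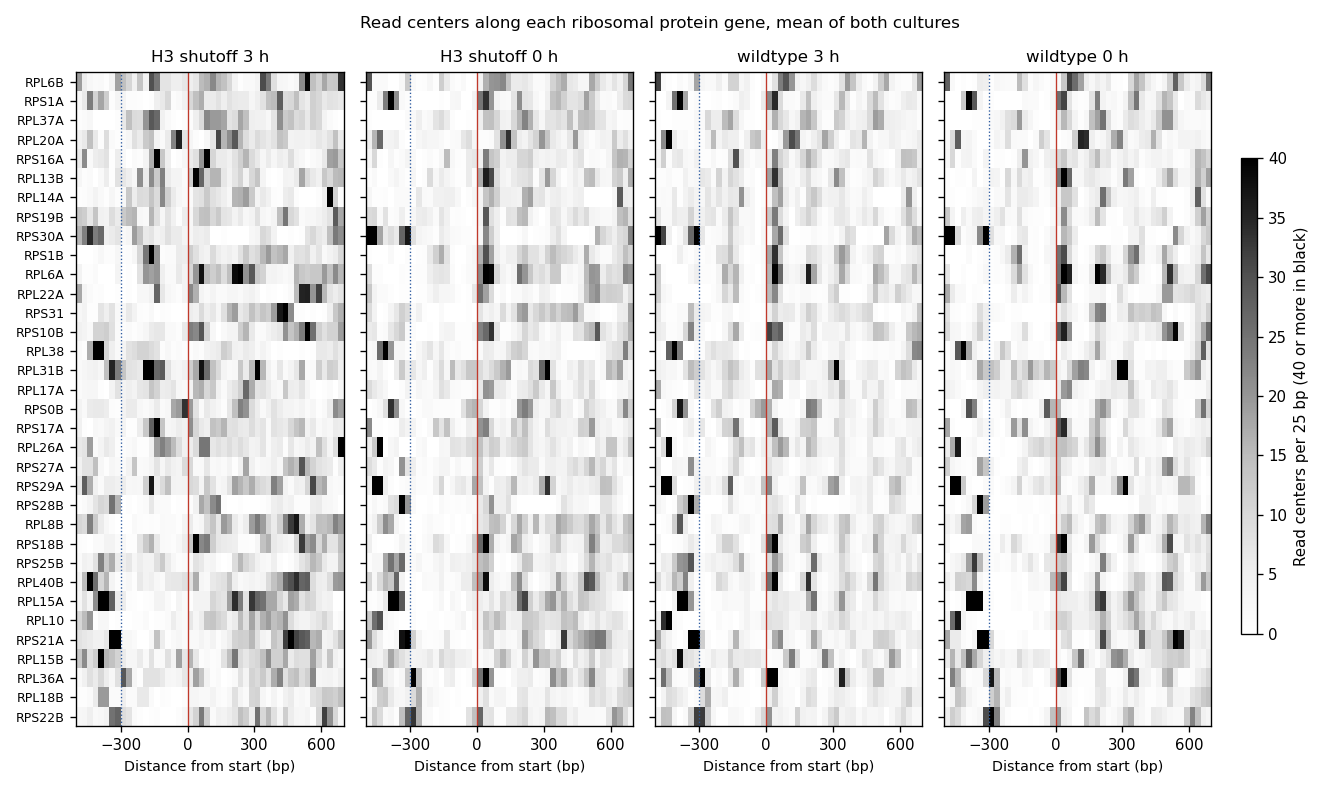
Read centers per 25 bp (grey scale, black at 40 or more) along each of the 34 ribosomal protein genes, from 500 bp before to 700 bp after the listed start, as the mean of both cultures of a group. The red line marks the start, the dotted blue line the outer border of the promoter window at 300 bp before it, and rows are ordered by the promoter change in H3 shutoff. Dark bars stand before the start of many genes in the panel of H3 shutoff at 3 h.

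In wildtype cells few promoter windows of the members passed the test. One member, RPL31B, fell (log2 −0.66 ± 0.19 SE, adjusted p = 0.0351, edgeR) and 0 rose, while 6 had an unadjusted p under 0.05 upwards, and DESeq2 called 0 in either direction. The fall of RPL31B was lost without H3 shutoff replicate 3, without replicate 4 and without wildtype replicate B. Of all transcripts tested 1.13% fell and 3.32% rose. The sums of the members were 2180 at 3 h against 1760 at 0 h in replicate B and 1273 at 3 h against 1028 at 0 h in replicate C. The median log2 change was 0.40 in members and 0.25 in the other transcripts, and 22 of 34 members were higher at 3 h in both cultures. In replicates B and C singly 26 and 27 members were higher at 3 h, beside 71.5% and 61.4% of the other transcripts.

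The difference of the changes, H3 shutoff minus wildtype, passed the test above 0 in 7 members and below 0 in 1. Of all transcripts tested 3.58% and 11.7% did so. The median difference of the log2 changes was 0.71 in members and −0.31 in the other transcripts. The members above were RPL6B (log2 1.90 ± 0.50 SE), RPL31B (1.82 ± 0.26), RPS1B (1.82 ± 0.45), RPL13B (1.40 ± 0.46), RPS16A (1.39 ± 0.46), RPL37A (1.38 ± 0.47) and RPS17A (1.15 ± 0.38), with adjusted p-values of 2.3e-06 to 0.034 (edgeR), and the member below was RPS22B (−1.38 ± 0.46). RPS1B, a small subunit gene, had 117 and 122 at 3 h against 72 and 28 at 0 h in H3 shutoff, and 58 and 34 at 3 h against 86 and 44 at 0 h in wildtype. The 2 strains moved in opposite directions there in all 4 cultures. Without H3 shutoff replicate 4 and without the block 1 member was above in each case, by DESeq2 1, without wildtype replicate B 2, and with fragments of 140 to 160 bp alone 2 of 27. The difference at RPS22B no longer passed without H3 shutoff replicate 3, replicate 4 or wildtype replicate B.

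Between the strains no promoter window of the members passed the test at 0 h: 0 were higher and 0 lower, as were 0.0% of all transcripts, with 0 members higher and 1 lower at an unadjusted p under 0.05 and 0 by DESeq2. At 3 h 3 members were higher in H3 shutoff than in wildtype, RPL6B (log2 1.55 ± 0.47 SE), RPS1B (1.38 ± 0.40) and RPL31B (1.25 ± 0.24), and RPS22B was lower (−1.54 ± 0.34), with adjusted p-values of 0.00179 to 0.0258 (edgeR with 4 group means). Of all transcripts 3.76% were higher and 12.0% lower. Without H3 shutoff replicate 4 there were 0 higher and without replicate 3 there was 1, RPS22B passed in neither, and without wildtype replicate B there were 9.

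Gene bodies of the ribosomal protein genes held more read centers at 3 h than at 0 h in H3 shutoff and fewer in wildtype when summed, and most members differed between the strains at 3 h. Summed over the members they held 11500 read centers at 3 h against 9158 at 0 h in H3 shutoff replicate 3 and 10851 at 3 h against 9565 at 0 h in replicate 4. In wildtype they held 6917 at 3 h against 8609 at 0 h in replicate B and 7721 at 3 h against 8515 at 0 h in replicate C. In 25 of 34 members the count was higher at 3 h in both H3 shutoff cultures, and in 21 it was lower at 3 h in both wildtype cultures. In H3 shutoff replicates 3 and 4 singly 31 and 26 members were higher, against 42.9% and 40.2% of the other transcripts. In wildtype replicates B and C 8 and 8 members were higher, against 48.3% and 49.8%. Most of these single changes were too small to pass. In H3 shutoff 2 members rose and 0 fell, where 5.78% and 7.27% of all 1609 transcripts tested did, with 14 members up and 0 down at an unadjusted p under 0.05 and a median log2 change of 0.28 against −0.05 in the other transcripts. In wildtype 1 fell and 0 rose, where 4.23% and 1.49% of all transcripts did, with 12 down and 0 up at an unadjusted p under 0.05 and a median of −0.24 against −0.003. DESeq2 called 0 members in either strain, and in wildtype it gave no adjusted p for 30 of the 34. The rises in H3 shutoff numbered 1 without replicate 3, 0 without replicate 4 and 3 without either wildtype replicate, and the falls in wildtype 5, 5, 0 and 4 without H3 shutoff replicates 3 and 4 and wildtype replicates B and C in turn.

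The risen members were RPS10B and RPS19B, both of the small subunit, and the fallen one RPL6A of the large subunit. RPS10B (YMR230W, chromosome 13, 732382 to 733235, Watson strand) had 421 and 437 gene body read centers in H3 shutoff at 3 h, against 298 and 286 at 0 h, and 251 and 263 in wildtype at 3 h, against 366 and 288 at 0 h. The 3 h libraries were the highest in H3 shutoff and the lowest in wildtype, with no overlap between the groups of 3 h and any other (log2 0.56 ± 0.13 SE in H3 shutoff, adjusted p = 0.0369, edgeR). RPS19B, needed for the maturation of the small subunit, had 381 and 410 at 3 h against 268 and 302 at 0 h in H3 shutoff (log2 0.47 ± 0.13 SE, adjusted p = 0.0446, edgeR), and with fragments of 140 to 160 bp alone its change was −0.20, where the median of all transcripts was −0.68. RPL6A had 350 and 360 at 3 h against 539 and 447 at 0 h in wildtype (log2 −0.47 ± 0.12 SE, adjusted p = 0.0499, edgeR).

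The difference of the gene body changes between the strains passed the test in 13 members, all higher in H3 shutoff, and in 0 the other way, where 9.51% and 9.07% of all transcripts did. At an unadjusted p under 0.05 there were 20 and 0. The median difference was 0.55 in members and −0.05 in the other transcripts. The largest were at RPS10B (log2 0.90 ± 0.19 SE, adjusted p = 0.0246), RPS31 (0.80 ± 0.22, 0.037), RPS27A (0.79 ± 0.23, 0.045), RPL15A (0.77 ± 0.20, 0.0319) and RPL8B (0.74 ± 0.20, 0.0381, edgeR). RPS27A, of the small subunit, had 224 and 186 at 3 h against 165 and 150 at 0 h in H3 shutoff, and 102 and 127 at 3 h against 129 and 176 at 0 h in wildtype. The other members past the threshold were RPS0B, RPS22B, RPL31B, RPL6A, RPL6B, RPL15B, RPL13B and RPS19B, with differences of 0.54 to 0.73. The call was lost in all 13 by DESeq2 (0, with 13 at an unadjusted p under 0.05), where 2.48% of the other transcripts passed above 0. It was also lost in all 13 with fragments of 140 to 160 bp alone (0, with 2). There the median difference was 0.21 in members and −0.45 in the other transcripts, of which 28.4% passed the test below 0. The calls also depended on single cultures. Without H3 shutoff replicates 3 and 4 in turn the median difference was 0.45 and 0.62 in members, against −0.06 and −0.03 in the other transcripts. Without wildtype replicates B and C in turn it was 0.48 and 0.60, against −0.04 and −0.04.

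At 3 h the gene bodies of 26 of the 34 members were higher in H3 shutoff than in wildtype and 0 were lower, where 18.8% and 19.6% of all transcripts tested were. At an unadjusted p under 0.05 there were 28 and 0, and DESeq2 called 26 and 0. The median log2 difference was 0.62 in members and −0.05 in the other transcripts, and in 30 members both H3 shutoff cultures lay above both wildtype cultures, as in 29.8% of the other transcripts. RPS31 had 258 and 284 read centers in H3 shutoff against 123 and 142 in wildtype at 3 h, a 2.04-fold difference (log2 1.03 ± 0.17 SE, adjusted p = 0.00108, edgeR). RPL15A had 352 and 324 in H3 shutoff against 165 and 171 in wildtype (log2 1.01 ± 0.15 SE, adjusted p = 0.00065), and RPL8B 407 and 467 against 187 and 263 (0.96 ± 0.17, 0.00133). RPL10, a protein that joins the large subunit late in its assembly, had 264 and 269 in H3 shutoff against 108 and 167 in wildtype (0.95 ± 0.21, 0.00503), and RPS19B 381 and 410 against 186 and 252 (0.85 ± 0.17, 0.00252). None of these groups overlapped.

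The 8 members that did not pass were RPL37A, RPS28B, RPS30A, RPL38, RPS25B, RPS1B, RPS17A and RPL36A, with log2 differences of −0.16 to 0.44. At 0 h, by contrast, 0 members were higher and 0 lower, as were 0.0% of all transcripts, also at an unadjusted p under 0.05 and by DESeq2, although the median difference of the members was already 0.18 and both H3 shutoff cultures lay above both wildtype cultures in 17 of 34, as in 20.4% of the other transcripts. The count at 3 h was 14 without H3 shutoff replicate 3, 11 without replicate 4, and 6 with fragments of 140 to 160 bp alone, where the median of the members was 0.32 and that of all transcripts −0.47. Of the 34 members 31 carry a symbol ending in A or B, which marks one of a pair of duplicate genes, and read centers in a coding stretch shared by both copies could have been assigned to either of them.

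**Figure D4:**
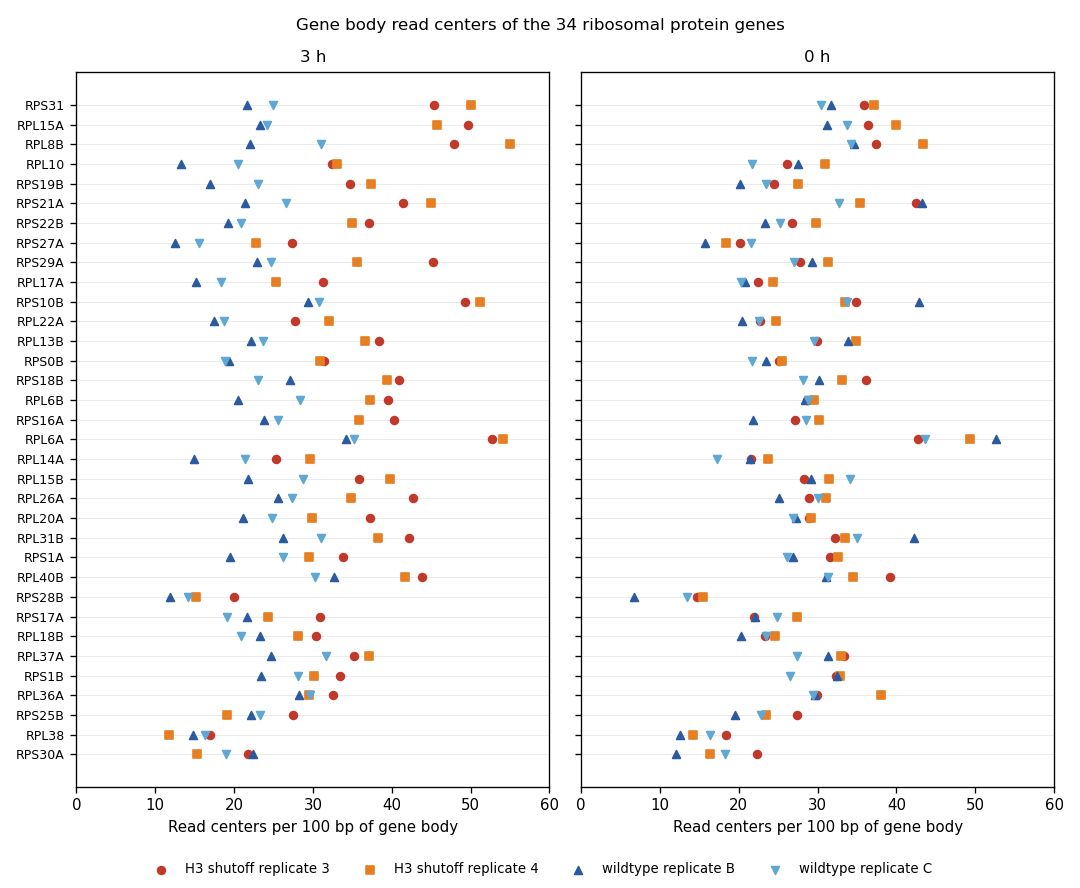
Gene body read centers per 100 bp in each of the 34 ribosomal protein genes (rows, ordered by the difference between the strains at 3 h) at 3 h (left) and 0 h (right). Circles and squares are H3 shutoff replicates 3 and 4, triangles wildtype replicates B and C. At 3 h the H3 shutoff cultures lie to the right of the wildtype cultures in 30 members (29.8% of the other transcripts), at 0 h in 17 (20.4%).

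The +1 nucleosomes of the ribosomal protein genes moved in both directions in H3 shutoff. In the 100-bp window around the +1 center 11 of the 34 members fell and 5 rose, where 53.3% of all 1601 transcripts tested fell and 3.81% rose. The median log2 change was −0.37 in members and −0.68 in the other transcripts, and under edgeR's TMM scaling, which sets the median of all transcripts to −0.02, the members' median was 0.28, with 2 fallen and 8 risen, where 8.42% and 12.7% of the other transcripts did. The median of the members thus lay above that of all transcripts on either scale, while the direction of their own median depended on the scale. In wildtype 0 members fell and 0 rose, where 0.812% and 1.19% of all transcripts did, with 3 down and 1 up at an unadjusted p under 0.05 and 0 by DESeq2. The difference between the strains passed the test below 0 in 8 members and above 0 in 3, against 44.0% and 3.19% of all transcripts. DESeq2 called 0 falls and 5 rises in H3 shutoff, and without replicates 3 and 4 in turn there were 8 and 5 falls and 2 rises each. Under TMM and by DESeq2 0 differences passed below 0. Without H3 shutoff replicate 4 the median difference was −0.35 in members and −0.77 in the other transcripts.

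The largest fall was at RPL15B (YMR121C, chromosome 13, 509696 to 510442, Crick strand). Its +1 window held 10 and 7 read centers in H3 shutoff at 3 h, against 46 and 36 at 0 h, and 46 and 48 in wildtype at 3 h, against 35 and 62 at 0 h, so the H3 shutoff libraries of 3 h were far below the others (log2 −2.26 ± 0.44 SE, adjusted p = 0.000367, edgeR). At RPL36A the counts were 44 and 42 at 3 h against 88 and 124 at 0 h in H3 shutoff, and 94 and 108 at 3 h against 91 and 100 at 0 h in wildtype (log2 −1.29 ± 0.21 SE, adjusted p = 0.000106, edgeR). RPS21A had 13 and 8 at 3 h against 34 and 23 at 0 h in H3 shutoff, and 42 and 50 at 3 h against 18 and 25 at 0 h in wildtype, where it did not pass. RPS25B had 24 and 14 at 3 h against 40 and 47 at 0 h in H3 shutoff, and RPL8B 29 and 14 against 52 and 48. Their fitted changes were −1.44, −1.20 and −1.25, and RPL40B, RPS30A, RPS22B, RPS1A, RPS1B and RPL6A also fell, by 0.66 to 1.15.

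The largest rise at +1 was at RPS28B (YLR264W, chromosome 12, 673118 to 673977, Watson strand), with 56 and 62 in H3 shutoff at 3 h, against 19 and 18 at 0 h, and 10 and 15 in wildtype at 3 h, against 14 and 23 at 0 h. It was 3.17-fold higher at 3 h in H3 shutoff (log2 1.67 ± 0.44 SE, adjusted p = 0.00349, edgeR). RPL31B had 108 and 87 at 3 h against 41 and 39 at 0 h in H3 shutoff, and 32 and 36 at 3 h against 47 and 44 at 0 h in wildtype, so that its +1 window and its promoter window rose together (log2 1.28 ± 0.23 SE, adjusted p = 0.000222, edgeR). RPS0B, RPL26A and RPS16A rose by 0.94, 0.89 and 0.75 on the log2 scale. In all 5 the H3 shutoff libraries of 3 h lay above those of 0 h. A +1 window overlaps the promoter window where the +1 center lies less than 50 bp after the listed start. At RPS0B, with its center at −8 bp, the rises of the 2 windows thus share read centers. The difference between the strains passed the test at RPS28B, RPL31B and RPS0B.

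Further into the genes no member passed the test downwards in H3 shutoff. Of those tested 3 of 31 rose at +2, 5 of 33 at +3 and 4 of 32 at +4, and 0 fell at each, with 2, 0 and 2 down at an unadjusted p under 0.05. Of all transcripts 49.4%, 33.8% and 22.6% fell and 3.92%, 3.06% and 5.36% rose. The median log2 changes were −0.26 at +2, 0.03 at +3 and 0.20 at +4 in members, against −0.65, −0.52 and −0.38 in the other transcripts, and TMM turned that at +2 to 0.37. In wildtype 4, 2 and 2 members fell, where 6.95%, 3.2% and 2.83% of all transcripts did, and 0 rose, where 3.15%, 0.487% and 0.67% did, with 1, 0 and 1 up at an unadjusted p under 0.05, and the medians were −0.30, −0.18 and −0.33 against 0.004, −0.04 and −0.02. The difference between the strains passed the test above 0 in 4, 5 and 6 members, where 4.44%, 3.55% and 6.33% of all transcripts did. It passed below 0 in 1, 0 and 0, where 32.7%, 18.2% and 14.3% did. At an unadjusted p under 0.05, 0 were down at +3 and 1 at +4. These counts moved with single cultures: without H3 shutoff replicate 3 the rises at +2, +3 and +4 numbered 0, 1 and 1, without replicate 4 they numbered 2, 0 and 0, and in wildtype 0 fell at +2, +3 and +4 without replicate B.

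**Figure D5:**
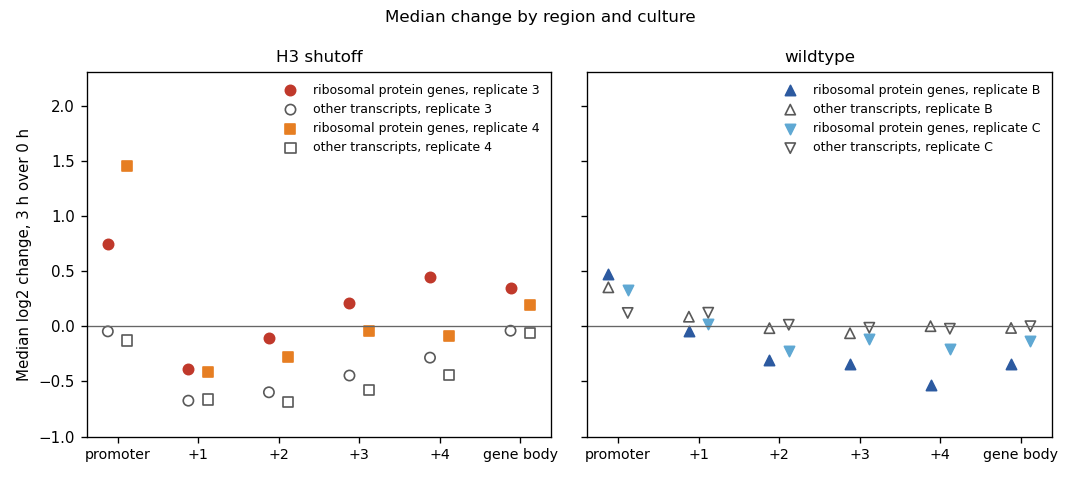
Median log2 change, 3 h over 0 h, of read centers in the promoter window, the +1 to +4 windows and the gene body, for H3 shutoff (left) and wildtype (right). Filled symbols are the ribosomal protein genes and open symbols the other transcripts, with one symbol shape per culture. Without scaling the +1 medians of H3 shutoff lie below 0 in both sets, and under TMM scaling that of the ribosomal protein genes lies above 0.

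Position and spread of the nucleosomes are given by culture, since 2 cultures against 2 cannot reach an exact permutation p below 0.333. Within 70 bp of the +1 center the median SD of the read centers of members was 31.9 and 31.5 bp in H3 shutoff at 3 h, against 27.8 and 27.9 bp at 0 h, and 24.0 and 24.0 bp in wildtype at 3 h, against 23.0 and 25.1 bp at 0 h. The other transcripts had 30.8 and 29.2 bp in H3 shutoff at 3 h, against 23.3 and 23.3 bp at 0 h. The +1 nucleosomes of members were thus more spread than those of other transcripts at 0 h, and the sets lay closer at 3 h in H3 shutoff. The mean position within the window lay further downstream at 3 h in 24 and 28 of 34 members in H3 shutoff replicates 3 and 4, with median moves of 5.44 and 8.91 bp, against 6.92 and 8.83 bp in the other transcripts. In wildtype the moves were −0.31 bp in 33 members in replicate B and 3.16 bp in 34 in replicate C.

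The nucleosomes that the authors called in each library numbered 35 to 45 in the promoters of the members in every library. In the promoter windows of the 34 members there were 45 and 45 called nucleosomes in H3 shutoff at 3 h, against 42 and 36 at 0 h, and 41 and 39 in wildtype at 3 h, against 38 and 35 at 0 h. Those of the other transcripts held 2138 and 2011 in H3 shutoff at 3 h, against 1955 and 1969 at 0 h. In wildtype they held 2032 and 1955 at 3 h, against 2023 and 2020 at 0 h. In H3 shutoff replicate 3 the calls per promoter were 1.324 at 3 h against 1.235 at 0 h in members. The other transcripts had 1.353 against 1.237 there, so the gain of members was no larger in that replicate. In replicate 4 members had 1.324 at 3 h against 1.059 at 0 h. There the other transcripts had 1.273 against 1.246, so the gain of members was larger. In wildtype replicates B and C members had 1.206 and 1.147 at 3 h, against 1.118 and 1.029 at 0 h. The other transcripts had 1.286 and 1.237 at 3 h, against 1.28 and 1.278 at 0 h. A called nucleosome lay within 50 bp of the +1 center in 29 and 28 members in H3 shutoff at 3 h, against 30 and 30 at 0 h, and in 32 and 31 in wildtype at 3 h, against 29 and 30 at 0 h. Of the 1580 other transcripts 1183 and 1168 had such a call in H3 shutoff at 3 h, against 1511 and 1510 at 0 h.

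In 3 pairs both duplicate copies were members. RPS1A and RPS1B, RPL15A and RPL15B, and RPL6A and RPL6B have promoters of their own, while their coding stretches may share reads. RPS1A had 41 and 30 promoter read centers in H3 shutoff at 3 h, against 15 and 5 at 0 h, which did not pass (log2 1.90 ± 0.71 SE, adjusted p = 0.0507, edgeR), and RPS1B rose by 1.34. RPL6A had 92 and 81 at 3 h against 45 and 26 at 0 h in H3 shutoff and rose (log2 1.31 ± 0.36 SE, adjusted p = 0.00568, edgeR), as did RPL6B. Neither RPL15A, with 32 and 15 at 3 h against 23 and 12 at 0 h, nor RPL15B, with 66 and 73 at 3 h against 71 and 51 at 0 h, passed in H3 shutoff. At +1 the copies of RPL15, whose difference was not tested, had other values, 31 and 28 in RPL15A at 3 h against 38 and 20 at 0 h in H3 shutoff, beside the fall in RPL15B. RPS19B and RPL18B lie next to each other on the Crick strand of chromosome 14 (61862 to 62957 and 63435 to 64595), and only the promoter window of RPS19B rose (log2 1.498 ± 0.36 SE, adjusted p = 0.00214, against −0.52 ± 0.50 in RPL18B, edgeR). The difference between those neighbours was not tested.

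Among 5 regulators of ribosomal protein genes in the table, IFH1, SFP1, RAP1, TOR2 and TPK3, the promoter window of IFH1 fell in H3 shutoff (log2 −0.57 ± 0.19 SE, adjusted p = 0.0239, edgeR) and 0 rose. The gene bodies of IFH1 and SFP1 rose in H3 shutoff (log2 0.30 and 0.66) and were higher than in wildtype at 3 h (0.45 and 0.84). At +1, IFH1, TOR2 and RAP1 fell by 1.25, 1.35 and 0.82 on the log2 scale. Of 17 translation factors and factors that bind or chaperone ribosomal proteins, 13 gene bodies were higher in H3 shutoff than in wildtype at 3 h and 0 lower, with a median of 0.55. The highest were STM1, which binds ribosomes (log2 1.13), YEF3, the elongation factor particular to fungi (1.09), TMA19 (0.96), the Rack1 homolog ASC1 (0.81) and the elongation factor TEF4 (0.76), followed by TIF1, EFB1, FUN12, TIF34, NIP1, RRB1, TSR2 and GCN3 (0.33 to 0.63). Among the promoter windows of these factors 1 of the 15 tested, that of the helicase gene TIF1, rose in H3 shutoff (log2 1.43), GCN3 and SUI1 fell (−0.57 and −1.36), and the median was −0.22. In wildtype the promoter windows of LTV1 and TIF11 rose (0.95 and 2.08), and the differences between the strains passed below 0 at LTV1, TEF4, TSR2 and TIF11 (−0.71 to −2.30). Gene bodies rose in H3 shutoff at TMA19, YEF3, ASC1 and RRB1 (0.36 to 0.63) and fell in wildtype at FUN12 and STM1 (−0.39 and −0.58). At +1 in H3 shutoff 10 of the 17 fell, FUN12, EFB1, LTV1, TMA19, GCD7, TSR2, ASC1, RRB1, TIF34 and NIP1. In that window 1, SUI1, rose (1.54). Of all transcripts 53.3% fell and 3.81% rose there, so falls at +1 were common outside these lists too. The shares of all transcripts given above apply to these counts as well.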

How the data were processed

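Chromatin of 2 strains at 2 time points, 2 replicates each, was digested with MNase and sequenced from both ends. Per the study's methods, read pairs were mapped to the sacCer1 build with Bowtie 0.12.6 at default settings, the ribosomal DNA repeats were left out, and an equal number of fragments was drawn at random for each library. The deposited files give each fragment's position, and read centers were counted from them. With default mapping, a fragment that fits both copies of a duplicated gene can be given to either. The authors also deposited nucleosomes called in each library from smoothed read centers, with the count of read centers and their SD.

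Read centers were counted in the 300 bp before each start, in 100-bp windows around the +1 to +4 nucleosomes and in the gene body. Windows that held 80 or more read centers over the 8 libraries were tested with edgeR 4.0.16 (glmQLFit, glmQLFTest; R 4.3.3) on equally deep libraries without scaling, over all transcripts, with Benjamini-Hochberg adjustment at 0.05. Culture was a block, since each replicate gave both time points. Deviations of libraries of the same culture correlated across transcripts by 0.09 to 0.25. Strains were compared at each time by 4 group means. Scripts were tested on simulated data.

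Members and gene lists were chosen with earlier results of these data known. Named genes were up to 5 per direction and region with the largest fitted change among those past the threshold and changed the same way in both cultures, the duplicate and neighbouring pairs, the 2 members with the most and the 2 with the fewest promoter read centers, and list genes past the threshold. Other members are named only to complete a count. Alternatives were TMM, DESeq2 1.42.0, no filter on low counts, no replicate block, fragments of 140 to 160 bp, other window sizes, chromosome 10 kept and each culture left out. Chromosome 10 (385 transcripts) was left out because listed starts lay off the fragment pattern there, a choice made with the data seen. Members on chromosomes not in the table used here were not analysed. Gene symbols were matched by locus tag to a RefSeq table, of which no coordinates were used, and no promoter sequence was searched.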

Additional observations from a re-analysis of the deposited data

Results flagged for a closer look

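The following changes, 3 h against 0 h, differed between H3 shutoff and wildtype by edgeR's test of the difference (log2 change in H3 shutoff minus that in wildtype, adjusted p under 0.05 over all transcripts). In the promoter window 7 members lay above 0, among them RPL6B (1.90), RPL31B (1.82), RPS1B (1.82), RPL13B (1.40) and RPS16A (1.39), and 1 lay below, RPS22B (−1.38). In the gene body 13 lay above 0, with RPS10B (0.90), RPS31 (0.80), RPS27A (0.79), RPL15A (0.77) and RPL8B (0.74) at the top. In the +1 window 8 lay below 0, with RPS21A (−2.54), RPL15B (−2.25), RPS30A (−1.73), RPS25B (−1.45) and RPL36A (−1.37) as the lowest, and 3 above, RPS28B (2.22), RPL31B (1.70) and RPS0B (1.07). Of all transcripts 3.58% passed above 0 and 11.7% below 0 in the promoter window, and 9.51% above 0 in the gene body. In the +1 window 44.0% of all transcripts passed below 0 and 3.19% above 0. Members thus passed below 0 less often there, in 23.5%. Behind these values stand 2 replicates a strain, which in wildtype may not have been grown separately.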

How the results depend on the processing

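Members and transcripts counted here as risen, fallen, higher, lower, or below or above 0 had an adjusted p under 0.05. The TMM and leave-one-out alternatives at +2 to +4 and all alternatives of the strain comparisons were chosen after seeing the data. The cause of a moved count was not tested, except that fragments of 140 to 160 bp made up 33.99% and 31.8% of the H3 shutoff libraries at 3 h against 47.6% and 54.0% at 0 h and were not rescaled.

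In the promoter window 17 members rose in H3 shutoff, 7 by DESeq2 and 10 without the replicate block. Of the other transcripts 6.54%, 1.6% and 2.88% did so. The fall in wildtype (1) became 0 by DESeq2, without the block, with fragments of 140 to 160 bp and with a 200-bp window, which gave 1 rise. The strain difference below 0 (1) became 0 under TMM, by DESeq2, without the block and with a 200-bp window. Those above 0 (7) became 1 by DESeq2, 1 without the block and 2 with fragments of 140 to 160 bp. Of the other transcripts 0.0641%, 0.641% and 1.51% passed above 0 in these 3 settings, in place of 3.21%. At 3 h 6 members were higher in H3 shutoff than in wildtype under TMM and 6 with fragments of 140 to 160 bp, in place of 3. Of the other transcripts 6.22% and 2.05% were, in place of 3.65%.

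In the gene body the 2 rises in H3 shutoff became 0 by DESeq2, 1 without the block and 0 with fragments of 140 to 160 bp, where 9 of 34 fell, against 80.9% of the other transcripts, and RPS19B reversed (−0.20). The fall in wildtype (1) became 0 under TMM, 0 by DESeq2 (with no adjusted p for 30 members) and 2 without the block. It became 9 with fragments of 140 to 160 bp and 4 with the first 600 bp, where 14.9% and 5.21% of the other transcripts fell. The 13 differences became 0 by DESeq2 and 0 with fragments of 140 to 160 bp, where 28.4% of the other transcripts passed below 0. The 26 members higher in H3 shutoff at 3 h became 6 with those fragments. Of the other transcripts 2.1% were then higher and 54.9% lower.

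In the +1 window the 11 falls in H3 shutoff became 2 under TMM, 0 by DESeq2 and 6 with a 140-bp window. Of the other transcripts 8.42%, 0.702% and 36.0% fell in these settings. With fragments of 140 to 160 bp 17 of the 29 members tested fell, against 79.8% of the other transcripts. The medians there were −1.04 in members and −1.30 in the other transcripts. The 5 rises became 8 under TMM, against 12.7% of the other transcripts, and 0 with fragments of 140 to 160 bp, against 1.07%. The differences below 0 (8) became 0 under TMM and by DESeq2, and those above 0 (3) became 5 under TMM and 1 with fragments of 140 to 160 bp. Of the other transcripts 5.93% passed below 0 and 9.0% above 0 under TMM. Under TMM 9, 9 and 7 members rose in H3 shutoff at +2, +3 and +4. Of the other transcripts 12.3%, 9.33% and 9.99% did so. At +2 0 differences passed below and 8 above 0 under TMM, against 7.61% and 11.7% of the other transcripts.

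With each culture left out in turn, the promoter counts ranged from 0 to 1 (falls) and 0 to 21 (rises) in H3 shutoff, 0 to 1 (falls) in wildtype, and 0 to 1 below and 1 to 9 above 0 for the difference. H3 shutoff against wildtype gave 0 to 2 lower at 0 h and 0 to 1 lower and 0 to 9 higher at 3 h. In the gene body there were 0 to 3 rises in H3 shutoff, 0 to 5 falls and 0 to 1 rises in wildtype, 0 to 1 differences below and 0 to 9 above 0, and 11 to 25 members higher in H3 shutoff at 3 h. In the +1 window there were 5 to 11 falls and 2 to 5 rises in H3 shutoff, 0 to 1 rises in wildtype, and 5 to 7 differences below and 2 to 3 above 0. At +2 there were 0 to 1 falls and 0 to 3 rises in H3 shutoff, 0 to 4 falls in wildtype, and 0 to 1 differences below and 1 to 5 above 0. At +3 there were 0 to 1 falls and 0 to 6 rises in H3 shutoff, 0 to 5 falls in wildtype and 2 to 7 differences above 0. At +4 there were 0 to 4 rises in H3 shutoff, 0 to 4 falls in wildtype and 0 to 8 differences above 0. Of the values of single named genes under the alternatives, 357 kept direction and call, 132 kept the direction and lost the call, and 1 reversed. The 357 include 39 with chromosome 10 kept and 39 with no filter on low counts, settings that leave the counts of these genes unchanged. By DESeq2 23 kept the call and 25 lost it. The largest number of calls was lost without H3 shutoff replicate 4. With 2 replicates a strain, members with few read centers, such as RPS28B (92 in the promoter window), had the least precise values.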
